A study of Mus musculus with 12 samples.

Results

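RNA held on tagged ribosomes of VGLUT2-expressing cells of the mouse midbrain was compared with RNA of the whole midbrain tissue. The 6 libraries were those titled midbrain IP (immunopurified) or midbrain input, replicates 1 to 3 of each, out of 12 in the series; the other 6 came from the hypothalamus and entered the model fit. All animals were adult Slc17a6-EGFP/Rpl10a mice of the transgenic line JX883, including those that gave the input, so no library came from a mouse without the transgene. The IP libraries hold ribosome-bound RNA captured with antibodies to EGFP, and the input libraries hold total RNA of the dissected region. One transgenic line was used, an IP from untagged tissue is not analysed here, and the labels give neither the number nor the sex of the animals behind a library.

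Translating ribosome affinity purification (TRAP) uses a ribosomal protein, here Rpl10a, fused to a fluorescent tag and made only in cells that use a chosen promoter. Pulling down the tag brings along the ribosomes of those cells with the messages they are translating, while nuclear RNA and RNA of untagged cells are left behind except for what sticks. Slc17a6 encodes VGLUT2, which loads glutamate into synaptic vesicles, and it marks most excitatory neurons below the cortex. In the midbrain such neurons are found in the superior and inferior colliculi, the periaqueductal grey, the red nucleus and parts of the tegmentum, beside GABAergic and dopaminergic neurons and glia.

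The 6 midbrain libraries held between 41909019 and 53625526 counts over genes, and rank correlations across genes were 0.974 to 0.980 within a group and 0.920 to 0.939 between the fractions. Levels are in CPM, counts scaled to a common library total, on a scale set by the trimmed mean of M values (TMM). Sets of 3 values are replicates 1, 2 and 3 in that order, and a gene given with a pair of unnamed sets follows the order, IP or input first, of the gene before it. The ribosomal RNA gene Rn45s took 12.5% of counts in IP replicate 1, 6.85% and 5.21% in the other IPs and 2.57% to 3.97% in the inputs. Same-numbered IP and input libraries shared a lane, and all IPs carried one index and all inputs another, so fraction and index cannot be told apart. Libraries also stood apart by number. Replicate 1 held Y-linked RNA at or near 0 and a higher level of messages for membrane proteins in both fractions, and replicate 3 held choroid plexus and thalamic-type transcripts. Their values are given in the paragraph on replicates, and the counts of genes without each number follow the main count.

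Slc17a6 itself (mm10, chromosome 7, 51622006 to 51671119), whose regulatory sequence drives the tag, was at 3955, 1864 and 2394 CPM in IP replicates 1, 2 and 3 and at 1236, 501 and 589 CPM in the inputs. All 3 IPs lay above all 3 inputs, and replicate 1 was highest in both fractions (log2 fold change 1.82, SE 0.48, adjusted p = 0.0116). The call was lost without replicate 2 in both fractions (adjusted p = 0.0519) and without replicate 3 (adjusted p = 0.0722). Within the lanes the log2 ratios of IP to input were 1.68, 1.895 and 2.02. Rpl10a, the ribosomal protein gene whose product carries the tag, was at 4.63, 6.10 and 5.86 CPM in the IPs and 6.88, 6.45 and 6.24 in the inputs and did not pass the threshold (−0.24, adjusted p = 0.521). Ribosomal protein genes have near-identical copies that can take or void their reads, so this count is uncertain. The sequence just before the RefSeq start of Slc17a6 (GRCm38.p6, chr7:51621710-51621829, plus strand) is shown because it lies at the 5′ end of the gene that defines the captured cells:
Slc17a6: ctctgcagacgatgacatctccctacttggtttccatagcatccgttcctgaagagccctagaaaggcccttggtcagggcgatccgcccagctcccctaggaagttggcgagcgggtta

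Of 18128 genes tested, 2544 (14.0%) were higher and 3604 (19.9%) lower in the IP, at a Benjamini-Hochberg adjusted p under 0.05 in edgeR's quasi-likelihood test. The 2 sides differed in size and in level. The higher genes were mostly moderate changes of well expressed genes, with a median log2 fold change of 0.85, a median level of 66.9 CPM in the IP, and 865 genes over 2-fold (4.77% of those tested). The lower genes fell by a median of 2.98 on the log2 scale from a median input level of 6.34 CPM, 3023 of them by over 2-fold (16.7%), and 406 had no count in any IP. The higher genes took 44.3% to 49.5% of the counts in the IPs and 24.2% to 27.6% in the inputs, and the lower genes 4.90% to 5.82% and 27.1% to 28.3%. Within the lanes, 2536 of the 2544 higher genes and 3576 of the 3604 lower genes kept their direction in all 3 same-numbered pairs. They were called from these same libraries, so this is a description and not a separate test. Of all genes tested, 31.0% lay above 0 in all 3 pairs and 35.5% below. All 3 IPs lay above all 3 inputs for 21.1% of genes tested and below them for 27.8%. With both libraries of number 1, 2 or 3 left out, an alternative chosen after seeing the data, 1488, 1658 and 1468 genes were higher and 2298, 2456 and 2265 lower. A difference between IP and input can reflect which cells hold the RNA, how much of it is on ribosomes, or how well it is captured. These cannot be told apart here, and this holds for every difference between the fractions below. Between replicate numbers or regions, fewer cells of a type and less RNA per cell cannot be told apart either.

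**Figure D1:**
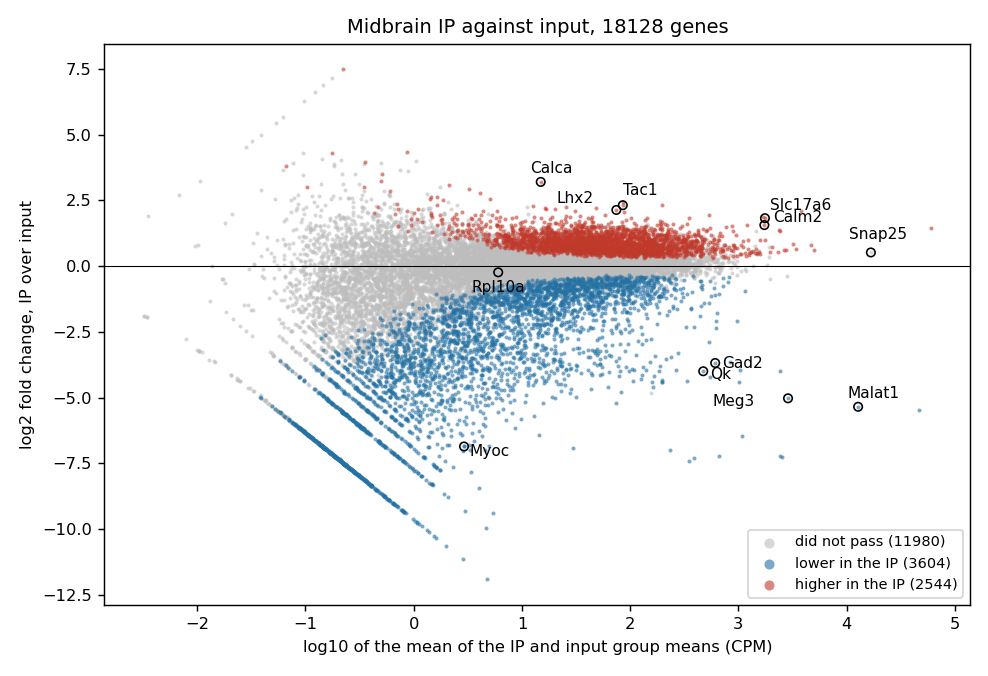
Log2 fold change of IP over input (y axis) against the log10 of the mean level in CPM (x axis) for the genes tested, 1 point a gene, red for the 2544 higher, blue for the 3604 lower and grey for those that did not pass, with 12 genes circled and named. The higher genes form a band of moderate changes at middle and high levels, while the lower genes spread down to far larger changes.

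Neuropeptide genes were among the largest increases. Of 36 precursor genes tested, 12 rose, 1 fell and 23 did not pass (median log2 fold change 0.59), beside a median of −0.047 over all genes tested, of which 14.0% rose and 19.9% fell. Calca, which encodes the calcitonin gene-related peptide, was at 33.9, 18.7 and 28.1 CPM in the IPs and 5.86, 0.954 and 1.94 in the inputs, the largest fold change among the higher genes of at least 5 CPM in the IP without overlap, predicted genes and bare accessions aside (log2 fold change 3.199, SE 0.78, adjusted p = 0.00797). Tac1, the substance P precursor gene, was at 249, 116 and 61.2 and 43.3, 27.0 and 15.5 CPM (2.31, adjusted p = 0.0265). In both fractions Tac1 was highest in replicate 1 and lowest in replicate 3, and the IP lay above the input in each lane. Grp, for gastrin-releasing peptide, was at 23.7, 20.5 and 19.2 and 4.46, 5.72 and 2.86 CPM (2.28, adjusted p = 0.0013), and Nts, for neurotensin, at 43.9, 17.8 and 18.3 and 9.90, 4.17 and 3.36 CPM (2.20, adjusted p = 0.0129). Cck, for cholecystokinin, was far more abundant in counts, at 769.6, 329 and 549.9 and 152, 129 and 184 CPM (1.83, adjusted p = 0.00323). None of the IP and input groups of these 5 genes overlapped. That held for 48.9% of all genes tested, 21.1% with the IP above, and was required of genes named as largest changes. The calls of Tac1 and Nts were each lost when any of 3 of the 6 libraries was left out, with the highest adjusted p without IP replicate 1 (0.109 and 0.0558).

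Several peptides of the list rose from low levels. Crh, the corticotropin-releasing hormone gene, was at 4.63, 2.78 and 3.98 CPM in the IPs and 0.634, 0.477 and 0.237 in the inputs (3.07, adjusted p = 0.00557), and Gal, the galanin gene, at 2.89, 1.84 and 4.87 and 0.461, 0.394 and 0.828 CPM (2.51, adjusted p = 0.00194). Adcyap1, which encodes PACAP, rose by 1.48 (adjusted p = 0.0496), a call lost in 5 of 6 cases with 1 library left out (up to adjusted p = 0.208, without IP replicate 1). The cerebellin genes Cbln1 (1.41), Cbln2 (1.81) and Cbln4 (1.48), whose products are secreted, rose too. Npy, the neuropeptide Y gene, was the 1 precursor that fell, from 3.77, 6.76 and 3.24 CPM in the inputs to 0.808, 0.749 and 0.381 in the IPs (−2.82, adjusted p = 0.00098). Penk, the enkephalin precursor gene, did not pass (0.97, adjusted p = 0.301), with overlapping groups. Of 13 genes of peptide processing, 2 rose, 0 fell and 11 did not pass (median log2 fold change −0.075).

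Sst, the somatostatin gene and a marker of many inhibitory neurons, also rose, from 56.9, 127 and 95.9 CPM in the inputs to 371, 375 and 144 in the IPs (log2 fold change 1.67, SE 0.41, adjusted p = 0.00848). Its IPs all lay above its inputs, but the ratio within the lane was lowest in replicate 3, where the log2 ratios were 2.69, 1.56 and 0.58. The letters TGACGTCA, a cAMP response element for which Sst is the textbook example, stood in the promoter windows of 5 of 28 precursor genes with a RefSeq window, on either strand, against 3.09% of the 11489 protein-coding genes tested that have one. A window ran from 250 bases before to 50 after the first start listed. Of those precursor genes Sst rose and the other 4 did not pass. The Sst stretch (GRCm38.p6, chr16:23890845-23890964, minus strand) is shown as the one risen precursor that holds them, with the element in capitals:
Sst: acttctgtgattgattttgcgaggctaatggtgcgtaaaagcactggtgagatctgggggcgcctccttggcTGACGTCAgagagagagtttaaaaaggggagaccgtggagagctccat

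Transcription factor genes known from excitatory and tectal neurons went both ways. Of 47 factors of excitatory and tectal neurons, 13 rose, 13 fell and 21 did not pass, so 27.7% went each way (median log2 fold change 0, the value of members with no count in any midbrain library). Lhx2, a LIM homeobox factor, was at 119.5, 113 and 131 CPM in the IPs and 22.4, 28.7 and 31.9 in the inputs (log2 fold change 2.13, SE 0.47, adjusted p = 0.00455). Pou4f2, a POU-domain factor also known as Brn3b, was at 60.8, 62.4 and 25.9 and 15.4, 14.5 and 4.54 CPM (2.11, adjusted p = 0.0384) and was lowest in replicate 3 in both fractions. Barhl2 was at 79.2, 73.0 and 48.1 and 17.1, 28.0 and 13.3 CPM (1.78, adjusted p = 0.000838). In each of these 3 genes every IP lay above every input. Mab21l2 (1.66), Nhlh2 (1.37), Onecut3 (1.31), Ebf2 (1.33) and Ebf3 (0.93) rose as well. Tfap2d (1.601) and Barhl1 (1.71) passed although IP replicate 3 lay below input replicate 2 in both. The calls of Pou4f2 (up to adjusted p = 0.115), Barhl1 (0.116) and Ebf3 (0.132) were lost without input replicate 3 and in 3 or 4 further cases with 1 library left out, and that of Tfap2d in 4 (up to 0.166, without IP replicate 2).

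The nuclear factor I genes Nfia (−3.38), Nfib (−3.23) and Nfix (−3.21), which glia also express, fell. So did Pax7, a paired-box factor of the dorsal midbrain, from 14.2, 12.5 and 8.73 CPM in the inputs to 0.786, 1.997 and 1.40 in the IPs (−3.08, adjusted p = 0.00685), its relative Pax3 (−3.57), and the LIM genes Lhx1 (−2.74) and Lhx5 (−3.48). Nhlh1 had no count in any IP and was at 0.0576, 0.332 and 0.851 CPM in the inputs, at least 6.71-fold above the floor of 3 counts per library. Without input replicate 2 the call of Pax3 was lost (adjusted p = 0.14), as in 4 further cases. Pou4f1 (1.17, adjusted p = 0.16) and Uncx (−0.79, adjusted p = 0.179) did not pass, although Pou4f1 passed at a like fold change with limma-voom (adjusted p = 0.0364) and in the midbrain libraries alone (0.023, or 0.00114 with the block). The midbrain-hindbrain boundary factors En1 (−0.22, adjusted p = 0.79) and En2 (−0.23, adjusted p = 0.813), which were detected in all 6 libraries, did not pass either.

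Factors of midbrain inhibitory neurons fell or did not pass. Of 24 tested, 0 rose, 16 fell and 8 did not pass (median log2 fold change −3.45). With genes that have no count in the IP placed at their bound, the median was −3.203. On the log2(CPM + 0.5) scale, which understates changes of low genes, the medians within the lanes were −0.79, −1.250 and −1.87. Tal1, which with Gata2 and Gata3 sets the GABAergic fate in the embryonic midbrain, was at 25.9, 21.2 and 21.0 CPM in the inputs and 0.914, 3.21 and 1.38 in the IPs (log2 fold change −3.63, SE 0.54, adjusted p = 0.000449). Gata3 was at 24.2, 34.2 and 20.6 and 1.96, 3.82 and 1.23 CPM (−3.49, adjusted p = 0.00506). In both genes every IP lay below every input, and IP replicate 2 was the highest IP. The forebrain-type factors Dlx1 (−5.62) and Lhx6 (−3.75) also fell, from under 5 CPM in every input library.

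The genes of GABA synthesis and loading were among the called decreases with high input levels. Of 10 genes of GABA and glycine synthesis and transport, 0 rose, 8 fell and 2 did not pass (median log2 fold change −2.94). Gad2, which encodes a glutamate decarboxylase, was at 1280.2, 1169 and 943 CPM in the inputs and 48.9, 139 and 75.8 in the IPs (log2 fold change −3.68, SE 0.44, adjusted p = 0.000106), and Gad1 at 141, 116 and 89.3 and 9.58, 15.01 and 8.99 CPM (−3.36, adjusted p = 1.22e-05). Slc32a1, the vesicular transporter of GABA and glycine, was at 45.2, 36.8 and 30.3 and 4.17, 4.396 and 2.88 CPM (−3.29, adjusted p = 3.66e-05). Every IP lay below every input, and for Gad1 and Gad2 replicate 2 was the highest IP.

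Dopamine and serotonin genes fell too. Of 13 genes of monoamine synthesis and transport, 1 rose, 8 fell and 4 did not pass (median log2 fold change −2.40). Slc6a3, the dopamine transporter gene, was at 75.3, 35.2 and 33.7 CPM in the inputs and 2.42, 3.05 and 3.999 in the IPs (−3.93, adjusted p = 0.00239). Th, for tyrosine hydroxylase, was at 40.9, 47.9 and 41.1 and 6.14, 13.2 and 5.14 CPM (−2.40, adjusted p = 0.000394), and Aldh1a1, an aldehyde dehydrogenase of ventral dopamine neurons, at 271, 171 and 169 and 5.50, 15.6 and 8.57 CPM (−4.36, adjusted p = 4.33e-05). No IP reached any input for these 3 genes. Tph2, for the enzyme that starts serotonin synthesis, also fell (−3.18, adjusted p = 0.0208), a call lost in 4 of 6 cases with 1 library left out (up to adjusted p = 0.0715, without input replicate 3). Of 23 dopamine neuron and patterning regulators, 1 rose, 9 fell and 13 did not pass (median log2 fold change −0.64), with Otx2 (−3.89) and Nr4a2 (−1.32) among those that fell. Foxa2, a dopamine lineage factor, had 1 count over the 3 IPs and 92 over the inputs, which puts the input 94.5 times as high (95% exact interval 16.5 to 3772). Such intervals, and the floor of 3 counts, cover counting error only.

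**Figure D2:**
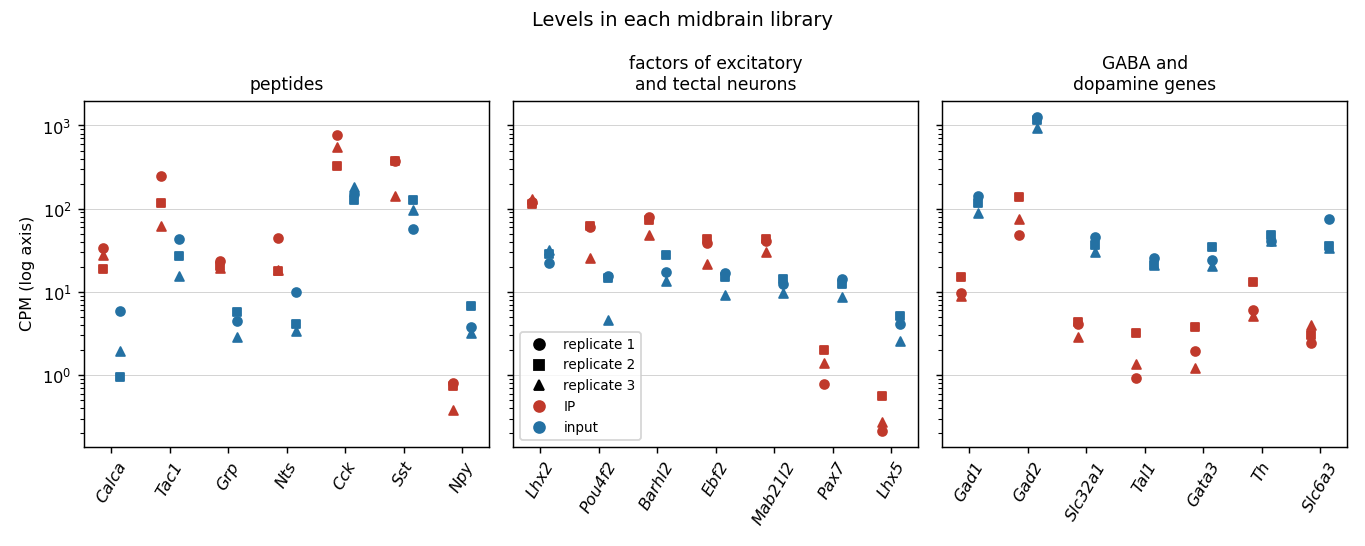
Level in CPM (log y axis) of 21 genes (x axis) in each midbrain library, red for IP and blue for input, with 1 symbol for each replicate number. Peptide genes other than Npy and the factors from Lhx2 to Mab21l2 have their IPs above their inputs, while Npy, Pax7, Lhx5 and the GABA and dopamine genes have every IP below every input.

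Few receptor and channel genes passed in the fit without a replicate block, in which 14.0% of all genes tested were higher and 19.9% lower. None of the 18 ionotropic glutamate receptor genes passed in edgeR's test (median 0.049, with 1 at an unadjusted p under 0.05 and 0 called higher and 0 lower by DESeq2). Of 22 receptor subunits for GABA and glycine 3 rose, 0 fell and 19 did not pass (median log2 fold change 0.59). Glra2, a glycine receptor subunit, was at 62.1, 39.0 and 49.5 CPM in the IPs and 23.7, 21.2 and 14.2 in the inputs (1.35, adjusted p = 0.0074), and Gabra5 at 158, 135 and 92.1 and 64.1, 50.5 and 44.3 CPM (1.28, adjusted p = 0.00495). Hrh3, the histamine H3 receptor gene, rose by 1.51. Of 35 peptide receptor genes, 3 rose, 3 fell and 29 did not pass (median log2 fold change 0.49): the melanocortin receptor Mc3r (1.85), the galanin receptor Galr1 (1.59) and Npy1r (0.999) rose, and Ntsr2 (−4.29), an astrocyte-rich neurotensin receptor, fell with Calcrl (−2.12) and Ramp1 (−2.07) of the calcitonin receptor family. The calls of Npy1r and Galr1 were each lost in 5 of 6 cases with 1 library left out (up to adjusted p = 0.159 and 0.0832, without input replicate 2 and 3), and that of Calcrl in 2 (up to 0.0542, without IP replicate 2). With the replicate number, which is also the lane, as a block, more receptor genes passed, and so did more genes of all tested. Of all 18128, 3672 were higher and 4280 lower with the block. The block called 4 of the 18 ionotropic glutamate receptor genes higher and 3 lower, and 11 of 22 GABA and glycine receptor genes and 9 of 35 peptide receptor genes higher. Without replicate 1 or replicate 3 in both fractions, 0 peptide receptor genes were higher, beside 1488 and 1468 of all genes tested. Chrnb3 (−2.90), a nicotinic subunit gene of dopamine neurons, fell.

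Among the calcium and sodium channel genes, several that encode auxiliary subunits rose. Of 21 calcium channel genes, 4 rose, 0 fell and 17 did not pass (median log2 fold change 0.33), and 3 of the risen genes encode the intracellular beta subunits Cacnb3 (1.55), Cacnb1 (0.85) and Cacnb2 (0.80). Cacnb3 was at 213, 145 and 152 CPM in the IPs and 49.8, 59.2 and 64.996 in the inputs, with no overlap (adjusted p = 4.66e-05). Of 17 sodium channel genes, 5 rose, 1 fell and 11 did not pass (median log2 fold change 0.26), those that rose including the beta subunit Scn2b (0.93) and the channel-binding factors Fgf12 (0.59) and Fgf13 (1.23), and Unc79 (−1.08), for a large partner of the leak channel, fell. No pore-forming alpha subunit gene of either kind passed in this fit among those tested. Of 39 voltage-gated potassium channel genes, 4 rose, 2 fell and 33 did not pass (median log2 fold change 0.38). Of 27 other potassium channel genes, 4 rose, 5 fell and 18 did not pass (median log2 fold change 0.12). Over all genes tested, 14.0% rose and 19.9% fell. With the block 13 and 5 rose, beside 3672 of all 18128 genes tested. Kcnj12 (1.51) of the inward rectifiers rose, while Kcnj10 (−3.95) and Kcnj16 (−3.31), which serve potassium buffering in astrocytes, fell. Genes of the FXYD regulators of the sodium pump also went both ways. Fxyd7 was at 106, 65.8 and 67.3 CPM in the IPs and 16.5, 19.1 and 15.97 in the inputs (2.22, adjusted p = 1.41e-05), whereas Fxyd1 (−1.87) fell.

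Many genes of the release machinery rose. Of 66 synaptic vesicle and release genes, 25 rose, 3 fell and 38 did not pass (median log2 fold change 0.43). Stx1a, the syntaxin of the plasma membrane, was at 38.7, 37.4 and 54.0 CPM in the IPs and 11.1, 10.04 and 14.9 in the inputs (log2 fold change 1.85, SE 0.23, adjusted p = 0.000111), and Syt5, a synaptotagmin, at 201, 96.2 and 127 and 39.0, 27.4 and 36.4 CPM (2.04, adjusted p = 0.00175). Vamp2, the vesicle SNARE, was at 3646, 3023 and 3742 and 1133, 1494 and 1494 CPM (1.34, adjusted p = 8.68e-05). Its partner Snap25 reached 15222, 21278 and 22591 and 12228, 14642 and 14397 CPM and did not pass (0.52, adjusted p = 0.0758), although its groups did not overlap. Sncb (1.44), a synuclein gene, rose. Pclo, for the giant active zone protein piccolo, fell from 699.5, 644 and 729.6 to 171, 189.8 and 193 CPM (−1.91, adjusted p = 3.72e-06), as did Syngr2 (−2.49).

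Calcium sensors, G proteins and small GTPases showed the same direction. Among 29 genes listed for calcium-binding and related proteins, 16 rose, 6 fell and 7 did not pass (median log2 fold change 0.80). Nrgn, for the calmodulin-binding protein neurogranin, was at 389.8, 401 and 181 CPM in the IPs and 39.2, 98.3 and 59.2 in the inputs (2.31, adjusted p = 0.000646). Calm2, a calmodulin gene, was at 2373, 2673 and 2728 and 828, 907 and 904 CPM and had the smallest p among the higher genes of at least 5 CPM (log2 fold change 1.56, SE 0.12, adjusted p = 4.07e-06), while Calm3 rose by 0.78, a call lost in 2 of 6 cases with 1 library left out (up to adjusted p = 0.0606, without input replicate 1). The interneuron and projection neuron markers Calb1 (1.53) and Calb2 (1.76) rose. The members that fell were 5 S100 genes, among them the glial marker S100b (−2.40) and S100a13 (−5.95), and Nrsn1 (−1.54). Nrsn1 was on the list although its product is not known to bind calcium. Of 41 kinase and phosphatase genes of calcium and cyclic nucleotide signalling, 19 rose, 2 fell and 20 did not pass (median log2 fold change 0.49). Of 40 G protein and RGS genes, 19 rose, 8 fell and 13 did not pass (median log2 fold change 0.43), with Gng3 (1.55) and Gng2 (1.14) of neurons among those that rose and Gng11 (−4.91) and the pericyte gene Rgs5 (−2.54) among those that fell. Of 55 Rab GTPase genes 28 rose, 2 fell and 25 did not pass (median log2 fold change 0.61), led by Rab40b (1.88). Rab31 (−2.54) and Rab34 (−1.35) were the exceptions that fell.

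Mitochondrial genes had the highest shares of risen members among the 69 lists. Of 78 nuclear-encoded subunits of the respiratory chain, 54 rose, 0 fell and 24 did not pass (median log2 fold change 0.93), so 69.2% rose beside 14.0% of all genes tested. Ndufa1, of complex I, was at 87.4, 99.6 and 116 CPM in the IPs and 27.7, 41.6 and 39.0 in the inputs (1.49, adjusted p = 0.000381), and Atp5e, of the ATP synthase, at 179.5, 192 and 210.3 and 54.0, 97.4 and 92.9 CPM (1.252, adjusted p = 0.00267). In both genes replicate 1 was lowest in the input, and the groups did not overlap. Among 75 genes for proteins of the mitochondrial ribosome, 47 rose, 0 fell and 28 did not pass (median log2 fold change 0.69). Mrps12 was at 74.1, 57.7 and 67.0 and 19.4, 26.7 and 23.01 CPM (1.52, adjusted p = 4.43e-05). Of 24 genes of the TIMM and TOMM import complexes, 15 rose, 1 fell and 8 did not pass (median log2 fold change 0.87), and of 26 genes that assemble the chain 12 rose, 0 fell and 14 did not pass (median log2 fold change 0.63), Coa3 (1.48) among them.

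Genes of fuel metabolism mostly did not pass. Of 21 genes of the tricarboxylic acid cycle, 4 rose, 1 fell and 16 did not pass (median log2 fold change 0.077). Of 26 genes of glycolysis and lactate handling, 2 rose, 5 fell and 19 did not pass (median log2 fold change −0.096), with Hk1 (0.52), the main hexokinase gene of brain, higher and the astrocyte aldolase Aldoc (−1.595) lower. Of 24 genes of fatty acid oxidation and ketone use, 0 rose, 9 fell and 15 did not pass (median log2 fold change −0.75). Cpt1a, the carnitine transferase that admits long-chain fatty acids to mitochondria, was at 11.6, 17.5 and 13.5 CPM in the inputs and 0.744, 1.98 and 0.698 in the IPs (−3.63, adjusted p = 0.000719). The summed level of the 16 astrocyte markers moved with these genes, from 2109.7 to 3504 CPM in the inputs to 488 to 550.0 in the IPs, and its part in the fall was not tested.

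Promoter windows of the mitochondrial genes held 2 short letter strings, ETS and nuclear respiratory factor motifs, at shares above those of all genes tested. CCGGAAG, a string bound by ETS-family factors, stood on either strand in 22 of 66 windows of mitochondrial ribosomal protein genes (33.3%) and 15 of 64 of respiratory chain genes (23.4%). It stood in 21.2% of 1897 windows of higher genes, 11.5% of 1986 of lower genes and 15.8% of all tested. Proteasome subunit genes held it in 13 of 38 windows (34.2%), so this string was not particular to mitochondrial genes. GCGCATGCG, letters of the palindrome of nuclear respiratory factor 1, stood in 9 of the respiratory chain windows (14.1%) and 3.38% of all tested; Atp5k, a small ATP synthase subunit gene that rose by 1.21, was among them. These shares are descriptions without a test. A stretch of each kind is shown, Atp5k with its overlapping matches on the 2 strands in capitals (GRCm38.p6, chr5:108434400-108434519, minus strand) and Mrpl43, which rose by 1.10, with both copies of the ETS string in capitals (chr19:45006443-45006562, minus strand):
Atp5k: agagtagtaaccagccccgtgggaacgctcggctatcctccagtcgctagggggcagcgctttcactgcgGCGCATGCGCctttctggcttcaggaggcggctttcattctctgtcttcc
Mrpl43: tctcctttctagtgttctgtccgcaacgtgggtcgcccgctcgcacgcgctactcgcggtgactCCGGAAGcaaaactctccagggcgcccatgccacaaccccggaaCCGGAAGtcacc

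Protein turnover and acidification genes rose in part, and cytosolic ribosomal proteins mostly did not pass. Of 45 proteasome genes, 17 rose, 1 fell and 27 did not pass (median log2 fold change 0.40), and of 18 genes of the vacuolar proton pump, which acidifies synaptic vesicles and lysosomes, 9 rose, 1 fell and 8 did not pass (median log2 fold change 0.57). Atp6v1f was at 89.8, 77.1 and 71.9 CPM in the IPs and 21.7, 33.2 and 26.7 in the inputs (1.55, adjusted p = 0.000141). Of 50 lysosomal genes, by contrast, 0 rose, 6 fell and 44 did not pass (median log2 fold change −0.38), the fallen ones including the microglial cathepsin gene Ctss (−5.09), beside the summed microglia markers given below, whose part was not tested. Among 82 genes for cytosolic ribosomal proteins, 5 rose, 3 fell and 74 did not pass (median log2 fold change 0.17). Many of these have near-identical copies, so their counts are uncertain. Of 52 translation factor and tRNA synthetase genes, 11 rose, 3 fell and 38 did not pass (median log2 fold change 0.10), and of 48 chaperone genes 4 rose, 4 fell and 40 did not pass (median log2 fold change 0.068).

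Across genes the fold change went with the length of the coding sequence. Among 15130 protein-coding genes tested with a coding sequence in the annotation, 35.2% of the shortest group (93 to 768 bases) were higher and 11.4% lower in the IP, when the genes were cut into 5 groups of equal number by length. In the longest (2556 bases and over) 6.54% were higher and 26.2% lower. The median log2 fold change stepped down over the 5 groups from 0.51 through 0.15, 0.041 and −0.094 to −0.25. Within the lanes the medians of the shortest group were 0.51, 0.37 and 0.45, and those of the longest −0.28, −0.19 and −0.25. Across genes, which share libraries and are not replicates, Spearman's rho of fold change with coding length was −0.27, with the length of the 3′ untranslated region −0.059, with the number of exons −0.22 and with the GC content of the coding sequence 0.14. The last differed between lanes, at 0.27 in replicate 1 and 0.029 and 0.079 in replicates 2 and 3, whereas that with coding length was −0.28, −0.23 and −0.27. Coding lengths are those of the annotation, and RNA integrity and fragment size were not given in the sources used here.

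The same order was seen inside functional groups. In each of the 13 lists split at its median coding length, the shorter members had the higher median. For RNA polymerase II and general transcription genes, the 19 shorter members had a median of 0.89 with 12 higher and 0 lower, and the 17 longer ones a median of 0.0052 with 2 and 4. Polr2f, a small polymerase subunit, was at 40.3, 34.98 and 33.9 CPM in the IPs and 9.61, 17.0 and 14.0 in the inputs (1.43, adjusted p = 0.00066). The largest subunit, Polr2a, was at 62.9, 51.9 and 56.8 and 55.7, 57.3 and 51.9 CPM and did not pass (0.058, adjusted p = 0.809), and Med12 of the Mediator complex fell (−1.22). Among motors, the light chain gene Dynll1 rose (1.20), while the dynein heavy chain gene Dync1h1 was at 369, 289 and 321 CPM in the inputs and 192, 186 and 165 in the IPs (−0.85, adjusted p = 0.000708) and the neuronal kinesin gene Kif5a at 1568, 1560.3 and 1368 and 1001, 795 and 565 CPM (−0.93, adjusted p = 0.00567).

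Cytoskeletal and nuclear genes followed suit. In the actin list the shorter members had a median of 0.75 and the longer ones −0.37: profilin Pfn2 (0.94), cofilin Cfl1 (0.93) and thymosin Tmsb10 (1.56) rose, and spectrin Sptan1 (−1.22) and the ankyrin genes Ank2 (−0.997) and Ank3 (−0.88) fell. Macf1, for a giant crosslinker of microtubules and actin, was at 740.0, 557 and 622 CPM in the inputs and 136, 148 and 106 in the IPs (−2.30, adjusted p = 3.99e-06). In the spliceosome the Sm core genes Snrpd1 (1.40) and Snrpf (1.39) rose, and Son (−0.62), Srrm1 (−0.68) and the kinase Clk1 (−2.11) fell. Of 84 chromatin regulator genes 10 rose, 22 fell and 52 did not pass (median log2 fold change 0.040), Kmt2c (−1.15) and Kmt2d (−1.28), long histone methyltransferase genes, among those that fell. Of 21 nuclear pore genes, 0 rose, 7 fell and 14 did not pass (median log2 fold change −0.42).

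**Figure D3:**
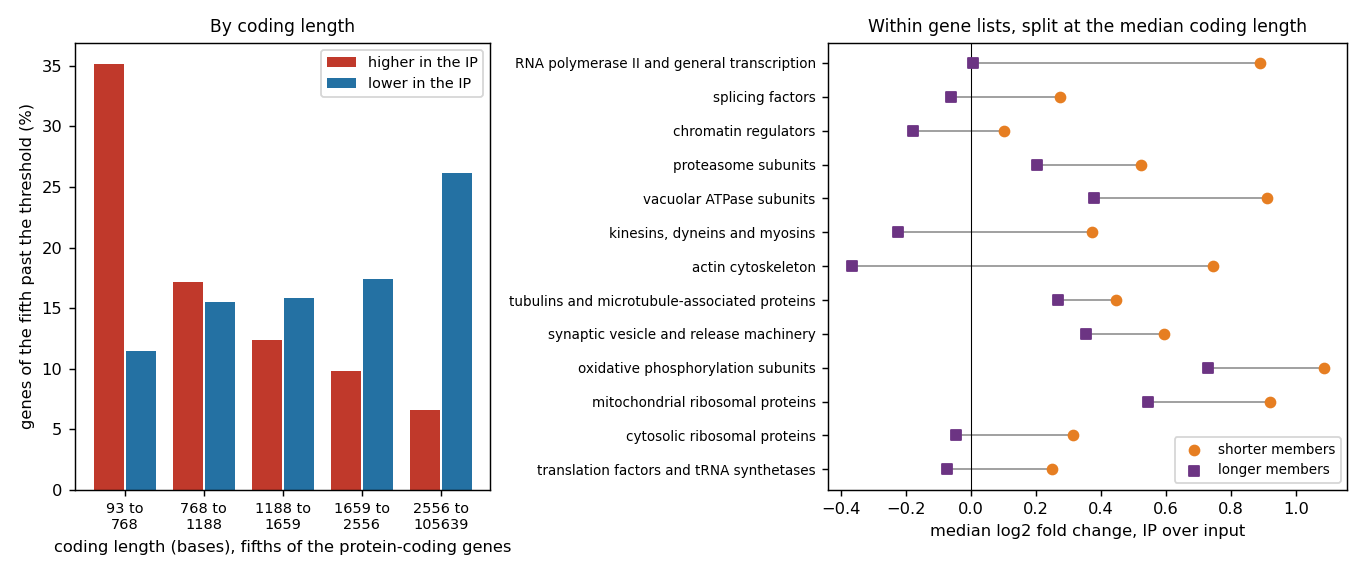
Left, percentage of protein-coding genes higher (red) or lower (blue) in the IP in each of 5 groups of coding length (x axis, bases). Right, median log2 fold change (x axis) of the shorter (orange circles) and longer (purple squares) members of 13 gene lists (y axis). The share of higher genes falls from the shortest to the longest group while that of lower genes is greatest in the longest, and in all 13 lists the shorter members have the higher median.

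Most markers of glia, vessels and other non-neuronal cells fell. All 16 astrocyte markers and all 16 oligodendrocyte markers fell, as did 15 of 16 microglia, 11 of 16 endothelial and mural, 15 of 19 meningeal and 11 of 14 ependymal and choroid markers, beside 19.9% of all genes tested. Of 9 oligodendrocyte precursor markers, 1 rose, 6 fell and 2 did not pass (median log2 fold change −3.48). Lhfpl3, of that list, was the one that rose, from 98.1, 67.0 and 68.6 CPM in the inputs to 142, 124 and 134 in the IPs (0.77, adjusted p = 0.035). Its call was lost in 5 of 6 cases with 1 library left out (up to adjusted p = 0.116, without input replicate 2). The summed level of the precursor list was 195 to 239.6 CPM in the inputs and 147 to 184 in the IPs. The summed level of the oligodendrocyte list was 6053 to 7458 CPM in the inputs and 384 to 565 in the IPs, and that of the microglia list 86.2 to 155 and 10.3 to 15.3 CPM. Of all these markers Tmem212, of ependymal cells, was the one at 0 in all IPs. Qk, an RNA-binding protein gene of oligodendrocytes and astrocytes, was at 872, 887 and 910.1 CPM in the inputs and 45.2, 77.4 and 44.5 in the IPs (log2 fold change −3.998, SE 0.21, adjusted p = 1.22e-06). Aqp4, the astrocyte water channel gene, was at 200.1, 136 and 113 and 8.73, 10.501 and 5.69 CPM (−4.17, adjusted p = 9.96e-06).

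The largest decrease by the same rule as for Calca was Myoc, an extracellular protein gene of astrocytes and meninges, at 9.01, 5.14 and 3.19 CPM in the inputs and 0.0425, 0.0768 and 0.0212 in the IPs (log2 fold change −6.86, SE 1.02, adjusted p = 0.000756). P2ry13, a microglial purine receptor gene, was at 9.55, 3.75 and 4.52 and 0.213, 0.0576 and 0 CPM (−6.01, adjusted p = 0.000801). Beyond cell type markers, of 47 immune genes 0 rose, 22 fell and 25 did not pass (median log2 fold change −2.02), of 44 collagen and basement membrane genes 0 rose, 19 fell and 25 did not pass (median log2 fold change −2.16), and of 29 proteoglycan genes 0 rose, 11 fell and 18 did not pass (median log2 fold change −1.19). Bst2, an interferon-induced membrane protein gene, had no count in any IP and was at 0.538, 0.643 and 0.851 CPM in the inputs, at least 11.0-fold above the floor. Of 18 SRY-box genes 0 rose, 12 fell and 6 did not pass (median log2 fold change −1.88). Apoe, the main brain apolipoprotein gene, fell from 154, 77.8 and 69.4 to 7.03, 5.03 and 5.10 CPM (−4.13, adjusted p = 6.49e-05). Among glutamate handling genes the astrocyte uptake carriers Slc1a3 (−4.48) and Slc1a2 (−2.37) and the glutamine synthetase gene Glul (−2.88) fell.

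**Figure D4:**
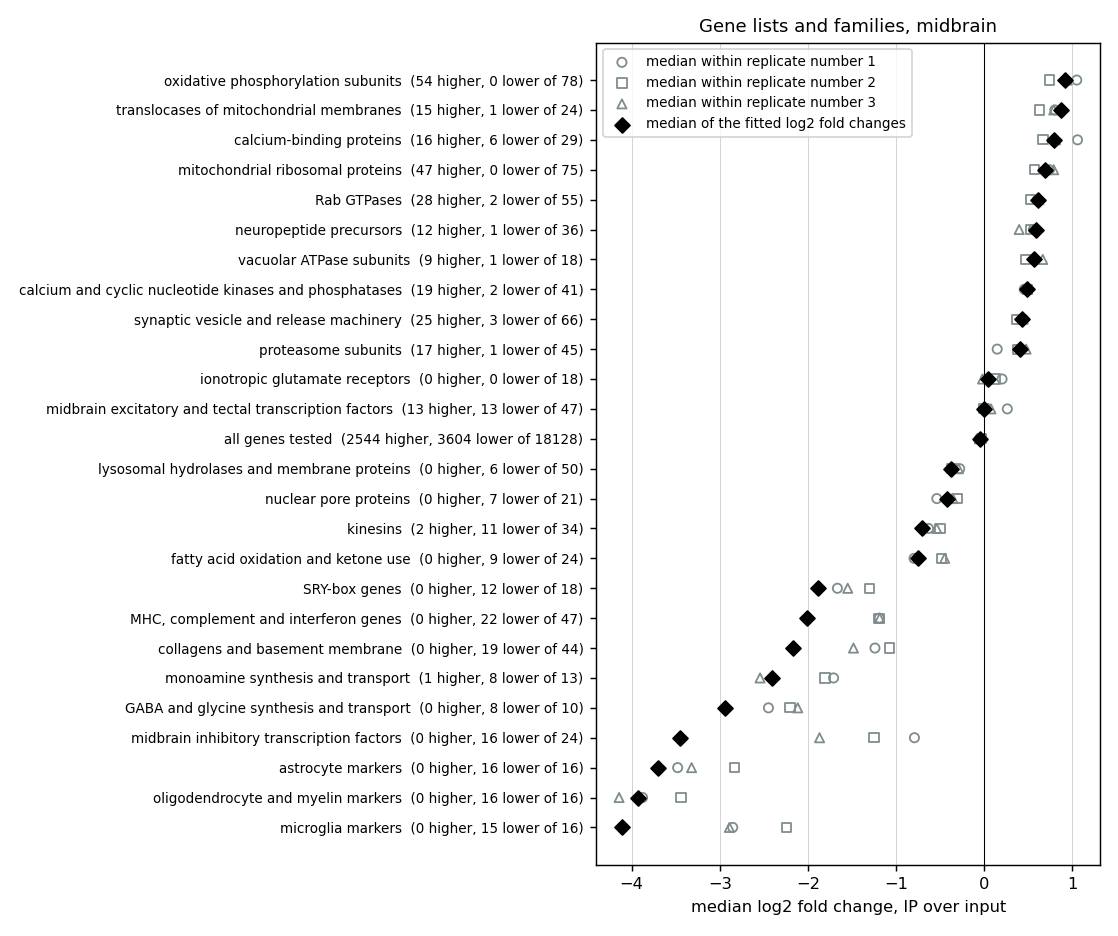
Median log2 fold change of IP over input (x axis) for gene lists and families (y axis, with the numbers of members higher and lower), black diamonds for the fitted values and open symbols for the medians of the same-numbered pairs on log2(CPM + 0.5). Lists of mitochondrial, peptide, calcium-binding and release genes lie right of all genes tested, and those of inhibitory factors and of glia lie furthest left.

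Noncoding RNA genes held some of the largest decreases of abundant transcripts. Protein-coding genes had a median of 0.040 with 16.2% higher and 17.2% lower. Of 304 long intergenic noncoding RNA genes 13 rose and 66 fell, of 299 antisense genes 8 rose and 75 fell, and of 30 small nucleolar RNA genes 0 rose and 20 fell. No source used here gives the strand setting of the counting, so antisense genes and their partners cannot be told apart. Malat1, a noncoding RNA of nuclear speckles, was at 16881, 24473 and 33319.6 CPM in the inputs and 563, 588 and 682 in the IPs (log2 fold change −5.35, SE 0.34, adjusted p = 1.6e-06). Meg3, a neuronal noncoding RNA, was at 4301, 5225 and 7186 and 169, 144 and 200.2 CPM (−5.03, adjusted p = 1.6e-06), and Miat, another nuclear one, at 190.3, 229 and 305 and 11.2, 12.8 and 13.1 CPM (−4.28, adjusted p = 3.23e-06). All 3 were highest in input replicate 3, and no IP came near any input. Tug1 (0.75, adjusted p = 0.0038) and Peg13 (0.99, adjusted p = 0.00159) went the other way. Of the genes tested, 1866 carried no symbol but a sequence accession, of which 49 rose and 722 fell; 1 such row took 8.68% to 9.997% of all input counts and 0.142% to 0.241% of IP counts.

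Other genes with large increases were of mixed function. Rprml, a relative of the cell cycle inhibitor reprimo, was at 9.56, 9.79 and 6.35 CPM in the IPs and 0.711, 1.97 and 1.73 in the inputs (2.54, adjusted p = 0.00145), Ngb, for the oxygen-binding protein neuroglobin, at 63.2, 37.7 and 25.1 and 12.4, 8.21 and 5.70 CPM (2.26, adjusted p = 0.00152), and Gpx3, a glutathione peroxidase gene, at 116, 70.9 and 90.4 and 25.04, 26.04 and 21.6 CPM (1.93, adjusted p = 0.00237). None of these groups overlapped, which the rule for naming the largest changes required. Genes best known from heart muscle appeared too: Tnnt2, for troponin T, was at 32.4, 33.7 and 16.04 and 5.40, 3.84 and 8.85 CPM (2.19, adjusted p = 0.00115), and Tnnc1, for troponin C, rose by 1.93. Ttc9b (2.17), Defb1 (2.78), Gtf2a1l (2.10), Tmem158 (1.86) and the histone gene Hist2h4 (2.94) were also among the 30 largest. Histone genes have near-identical copies and their counts are uncertain. The smallest p-values belonged to even, moderate rises of housekeeping and trafficking genes, such as Srp14 of the signal recognition particle at 179.6, 183 and 186 and 60.6, 68.5 and 69.1 CPM (log2 fold change 1.47, SE 0.12, adjusted p = 7.84e-06), the clathrin adaptor subunit Ap2s1 (1.69), the GTPase Rheb (1.40) and the nucleoside diphosphate kinase Nme1 (1.43).

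Some activity-related genes rose. Of 30 immediate early genes, 6 rose, 1 fell and 23 did not pass (median log2 fold change 0.46), beside 14.0% of all genes tested that were higher. The count higher was 2 without replicate 1 in both fractions, 3 without replicate 3 and 13 with the replicate block. Over all genes tested, these settings called 1488, 1468 and 3672 genes higher. Bdnf, the neurotrophin gene, was at 43.4, 59.9 and 66.6 CPM in the IPs and 27.3, 20.03 and 17.2 in the inputs (1.40, adjusted p = 0.00147), and Nptx2, a secreted synaptic pentraxin gene, at 23.3, 10.6 and 22.4 and 5.15, 5.60 and 6.74 CPM (1.69, adjusted p = 0.00441). Fos rose by 0.92 (adjusted p = 0.0275), though IP replicate 2 lay below input replicate 1 and the call was lost in 4 of 6 cases with 1 library left out (up to adjusted p = 0.106, without input replicate 3), and Arc (−0.43, adjusted p = 0.266) and Npas4 (−0.59, adjusted p = 0.175) did not pass. Of 19 clock genes, 6 rose, 0 fell and 13 did not pass (median log2 fold change 0.32).

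By level per kilobase of exon, the only scale here on which genes are set side by side, the IP was led by the microRNA row Mir6236 and among the genes that followed were several of calcium signalling and release. Mir6236 took 0.948%, 0.448% and 0.286% of counts in IP replicates 1, 2 and 3, in the same order as the ribosomal RNA gene Rn45s (12.5%, 6.85% and 5.21%). The source of the Mir6236 reads was not tested. Vsnl1, for the calcium sensor visinin-like 1, stood at 3045 CPM per kilobase, Snap25 at 2900.5, Calm2 at 1766, the 14-3-3 gene Ywhae at 1232 and Gng3 at 1087. In the input the same 5 genes stood at 1765, 2026, 599.7, 807 and 371 CPM per kilobase. Slc17a6 stood at 507 in the IP and 144 in the input.

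The replicate numbers differed from each other in ways that both fractions shared. Slc17a6 and Tac1 were highest in replicate 1, as given above. Of 3770 genes of at least 5 CPM whose product holds a hydrophobic segment of 19 residues, a mark of membrane and secreted proteins, the median log2 ratio to the other 2 libraries of the group was 0.35 in IP replicate 1 and 0.26 in input replicate 1. The 7185 genes without one stood at −0.058 in both these libraries. Between the fractions the 2 classes were closer, with medians of 0.13 and 0.19, though 14.4% of the first and 25.8% of the second were higher.

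Replicate 3 held more RNA of genes best known from choroid plexus and thalamus. Ttr, the transthyretin gene of the choroid plexus, was at 7.21, 0.788 and 888 CPM in the inputs and 0.0850, 0 and 31.4 in the IPs, so nearly all of it lay in replicate 3 (−4.83, adjusted p = 0.134). Prkcd, a kinase gene of thalamic neurons, was at 98.8, 98.2 and 211 and 131, 134 and 374 CPM, and Zic1, a zinc finger factor of dorsal thalamus and habenula, at 51.8, 81.9 and 163 and 81.7, 110.3 and 342 CPM, both highest in replicate 3 of either fraction. The 18 thalamic and habenular markers had a median log2 ratio to the other 2 libraries of 0.61 in IP replicate 3 and 0.60 in input replicate 3, and their summed level was 3566 to 5908 CPM in the IPs and 1968 to 2968 in the inputs. The list of ependymal and choroid markers stood at 0.93 in input replicate 3 but at −0.013 in IP replicate 3. Cerebellar and hindbrain markers stood at 0.51 in input replicate 3 and 0.20 in IP replicate 3, and cortical and hippocampal markers at 0.44 and 0.16. The excitatory and tectal factors above lay lower in replicate 3, at a median of −0.49 in the IP. The part of these transcripts in the midbrain differences was not tested. Fewer excitatory and tectal factors and peptide precursors passed as higher without number 1 or 3, as did fewer genes of all tested. Over all genes tested, 1488 were higher without number 1 in both fractions and 1468 without number 3, against 2544 with all libraries. Leaving out number 2 gave 1658, so a general loss of calls cannot be told apart from an effect of numbers 1 and 3. Without replicate 1 in both fractions, 7 excitatory and tectal factors and 8 peptide precursors were higher. Without replicate 3 the counts were 9 and 6, against 13 and 12 with all libraries.

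Sex-linked genes also parted the numbers. Xist, the X-inactivation RNA of female cells, was at 32.5, 16.4 and 17.8 CPM in the inputs and 2.36, 0.0960 and 1.38 in the IPs (−4.13, adjusted p = 0.0031). Ddx3y, a Y-linked helicase gene, was at 0.0192, 28.7 and 15.4 and 0, 28.2 and 11.5 CPM, and Kdm5d, a Y-linked demethylase gene, at 0, 16.05 and 13.3 and 0, 10.6 and 6.67 CPM. Replicate 1 thus held Xist with next to no Y-linked RNA, while the inputs of replicates 2 and 3 held both kinds. Neither Y-linked gene passed.

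**Figure D5:**
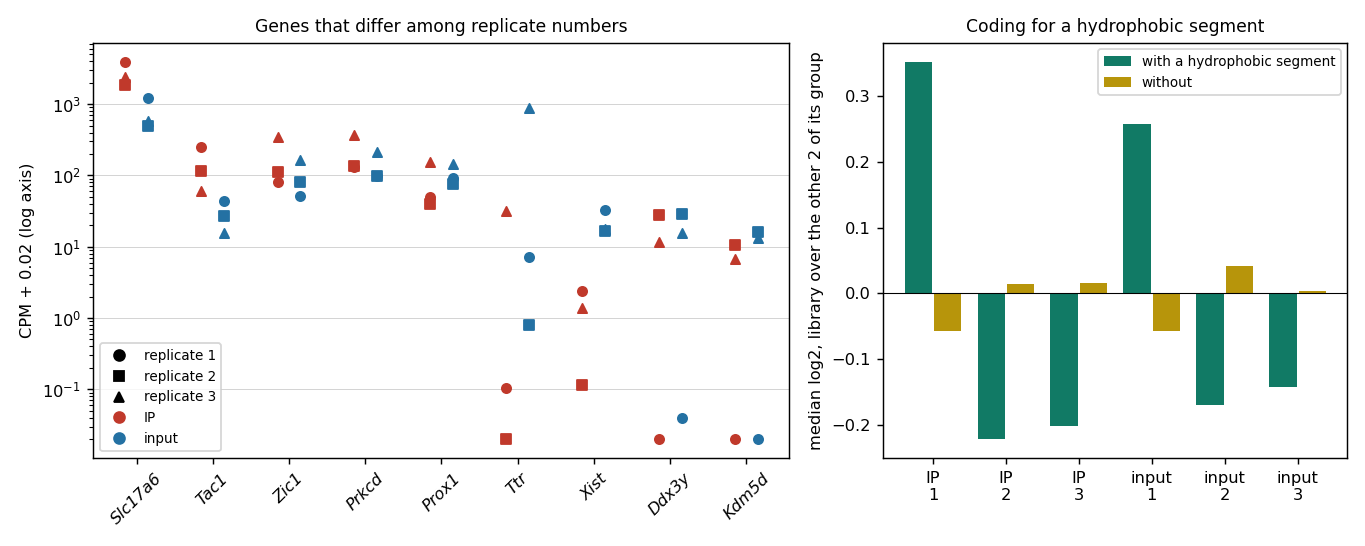
Left, level in CPM plus an offset of 0.02 (log y axis) of 9 genes (x axis) in each midbrain library, red for IP and blue for input, 1 symbol for each replicate number. Right, median log2 ratio of each library to the other 2 of its group (y axis) for genes with (green) and without (ochre) a hydrophobic segment. Replicate 1 is highest for Slc17a6 and for hydrophobic-segment genes in both fractions and lacks Y-linked RNA, and replicate 3 is highest for Zic1, Prkcd, Prox1 and Ttr.

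Few genes differed from the hypothalamus in their enrichment. In edgeR's test of the difference between the regional fold changes, 14 genes passed (0.0772%), 3 with the midbrain value above and 11 with it below, and 213 by DESeq2. With 1 midbrain library left out, 8 to 19 passed, 8 of them without input replicate 1 or 2. Meis2, a TALE homeobox gene, had a log2 fold change of 0.55 in the midbrain and −4.08 in the hypothalamus (difference 4.63, adjusted p = 0.0264). Lhx1 stood at −2.74 and 2.27 (difference −5.01, adjusted p = 0.00492), and Foxb1, a forkhead factor of the mammillary region, at −1.12 and 3.34 (difference −4.46, adjusted p = 0.00492). The midbrain groups of Foxb1 overlapped, and its midbrain call was lost in 3 of 6 cases with 1 library left out (up to adjusted p = 0.141, without input replicate 2). Calca (difference 2.09, adjusted p = 0.797) and Lhx2 (0.45, adjusted p = 1) did not pass this test, so a difference between the regions in their rise was not shown.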

How the data were processed

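RNA sequencing counts of 12 TRAP libraries, 3 in each of 4 groups, were used. Reads were aligned with STAR 2.0.0e to mm10, and HTSeq made the counts, per the submitters' processing notes; the deposited values are raw counts per gene, and the annotation, counting mode and strand setting are not given in the sources used here. Rows for reads outside genes and a row without a gene name were dropped, the latter holding at most 7 counts in any library.

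Genes were filtered with filterByExpr, scaled by TMM and fitted with the robust quasi-likelihood model of edgeR 4.0.16 over the 4 groups in R 4.3.3, so that all 12 libraries shared the estimate of spread, with Benjamini-Hochberg adjustment over 18128 genes. The hypothalamus entered that estimate and the test of the regional difference. Fold changes are log2, IP over input. Between 41909019 and 53625526 counts per midbrain library put the floor of 3 counts at 0.0576 to 0.0710 CPM. The labels do not say whether replicates came from separate mice, so p-values cover only the variation among these libraries. Replicate 1 held next to no Y-linked RNA in either fraction, unlike replicates 2 and 3, so that variation is not technical alone. How much of it is technical is not known. On data simulated for this comparison (17712 genes), 13 and 12 of 50 genes changed 2-fold up and down were recovered, and 39 and 31 of 50 changed 4-fold, with 1 false call. The simulation changed only these genes, whereas 33.9% of genes were called in the data. The adjusted threshold is stricter where fewer genes change, so these counts do not give the power of the real comparison.

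The members, gene lists and rules were chosen with earlier results of these data known. Genes were named as the 30 largest changes and 20 smallest p-values in each direction among genes of at least 5 CPM without overlap, the 20 highest IP levels per kilobase, the 10 largest spreads between same-numbered pairs, the largest regional differences, and the first 3 and up to 4 called members in each direction of 69 lists (up to 3 of 43 families). Adcyap1, Ank2, Ank3, Arc, Atp5e, Atp5k, Barhl1, Bst2, Calm3, Cbln1, Cbln2, Cbln4, Cck, Ddx3y, Dync1h1, Ebf2, Ebf3, Fgf12, Foxa2, Kdm5d, Kmt2c, Kmt2d, Mab21l2, Mrpl43, Nfib, Nhlh1, Nhlh2, Npas4, Nr4a2, Nrsn1, Onecut3, Pax7, Penk, Pfn2, Prox1, S100b, Sncb, Son, Sptan1, Srrm1, Tfap2d, Uncx, Xist, Zic1 and Tmem212 were named after their values were seen. Gene positions, types and coding lengths come from an mm10 annotation matched by symbol (23155 of 32531 features) or synonym (737), and 11489 of 15150 protein-coding genes tested had a RefSeq promoter (GRCm38.p6). A hydrophobic segment is a window of 19 residues of the annotated coding sequence with a mean Kyte-Doolittle hydropathy of at least 1.6. Alternatives were DESeq2 1.42.0, limma-voom (limma 3.58.1), RLE and library-size scaling, other filters, midbrain libraries alone, a replicate block, dropping Rn45s and leaving out libraries. Some genes are not reported here.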

Additional observations from a re-analysis of the deposited data

Results flagged for a closer look

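The enrichment of 4 transcription factor genes described above differed between the regions in the test of the difference itself. Lhx1 (difference in log2 fold change −5.01, SE 0.60, adjusted p = 0.00492) was at 0.616, 1.98 and 0.973 CPM in the midbrain IPs and 10.7, 7.13 and 6.15 in the inputs, against means of 53.1 ± 17.9 and 11.0 ± 3.43 CPM (SD, n = 3) in the hypothalamus. Lhx5 differed by −5.08 (adjusted p = 0.0019) and Foxb1 by −4.46 (adjusted p = 0.00492), so all 3 were relatively more enriched in the hypothalamus. Meis2 went the other way (4.63, adjusted p = 0.0264), at 202, 308 and 93.5 CPM in the midbrain IPs and 127, 190.5 and 95.7 in the inputs and at hypothalamic means of 6.28 ± 2.63 and 107 ± 46.8 CPM (SD, n = 3).

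Reads with more than 1 alignment, a row of the files that no comparison uses, made up 37.3% to 48.6% of all entries in the midbrain IPs and 23.7% to 28.8% in the inputs, with no overlap. Reads set aside as ambiguous between genes were the reverse, at 1.37% to 1.997% in the IPs and 8.73% to 15.1% in the inputs.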

How the results depend on the processing

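No alternative called a gene in the opposite direction to its reported call, and of the scalings tried library size alone moved the median of all genes most, by −0.078 on the log2 scale. That scaling called 1960 genes higher and 3754 lower, and DESeq2 2670 and 4365. With 1 midbrain library left out, 1918 to 2210 genes were higher and 2886 to 3052 lower. With both libraries of number 1, 2 or 3 left out, the counts were 1488, 1658 and 1468 higher and 2298, 2456 and 2265 lower, with fewer samples. A filter of 5 CPM in 3 libraries left 11890 genes, of which 2286 were lower. The regional difference, 14 genes, was passed by 213 with DESeq2, 8 with limma-voom, 105 with the replicate block, 8 to 19 with 1 library left out, and 9, 6 and 12 without number 1, 2 and 3; the cause was not tested.

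The main fit did not pair libraries by replicate number. Same-numbered IP and input libraries correlated across genes in their deviations from the group means at 0.189, 0.0754 and 0.157, and differently numbered ones at −0.141 to −0.025. Each library thus correlated best with its own number, whose lane it shared, but the labels do not say whether the 2 came from the same animals. With the replicate block, 3672 genes were higher and 4280 lower over 12 libraries, and 3507 and 3783 over the midbrain libraries, while 105 passed the regional test.

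Of 156 called genes named in the text, 42 missed the threshold under at least 1 alternative, all in the same direction. Of the others, 9 passed under at least 1 alternative, namely Kdm5d, Meis2, Penk, Pou4f1, Prkcd, Prox1, Snap25, Ttr and Zic1. Reversals of sign were limited to named genes that had not passed, and the cause was not tested: Ddx3y (−0.15) ranged from −1.36 to 0.78 with 1 library left out, En1 (−0.22) ranged from −1.07 to 0.20 with 1 library left out and was 0.11 without number 3 in both fractions, En2 (−0.23) ranged from −0.85 to 0.20 with 1 library left out, Polr2a (0.058) ranged from −0.013 to 0.13 with 1 library left out and was −0.055 with the filter of 5 CPM and −0.025 with library size alone and −0.0046 without number 1 in both fractions, Prkcd (0.65) ranged from −0.036 to 1.12 with 1 library left out, Ttr (−4.83) ranged from −12.76 to 1.40 with 1 library left out and Zic1 (0.85) ranged from −0.040 to 1.42 with 1 library left out.

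Depth limits the low end. A count of 0 allows up to 3 counts in a library. The simulated 2-fold changes were mostly missed at 3 libraries a group, but they were set in a far smaller share of genes than was called here.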
